A study of Mus musculus with 70 samples.

Results

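The complement components examined here were C1qa, C1qb, C1qc, C1s1, C2, C4b, C3, Cfb and C7, chosen by name. All 9 were found among the 55011 gene symbols of the deposited count table, and they were followed through 70 RNA-seq libraries of stromal, immune, endothelial and satellite cells and of whole muscle from mice.

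Complement is a cascade of plasma proteins that marks and lyses targets and draws in leukocytes. In the classical route C1q, a complex of A, B and C chains (C1qa, C1qb, C1qc), binds the target and activates the proteases C1r and C1s. C1s1 encodes C1s in the mouse, and C1s cleaves C4 (C4b) and C2 to form an enzyme that splits C3. The alternative route amplifies C3 cleavage through factor B (Cfb), and C7 belongs to the terminal group that inserts into membranes. The liver makes most circulating complement, C1q is known mainly as a product of macrophages, and fibroblast-like cells are known local sources of several other components.

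The libraries came from 6 experiments, and all cell types were sorted from muscle at 1000 cells per library. MmSCs are the stromal cells of muscle and MuSCs its satellite cells. In the cytokine experiment uninjured C57BL/6J mice received intraperitoneal injections, and their MmSCs were sorted. The cytokines were Oncostatin M (Osm), Il-17A, Il-1b and TNFa. All 4 were given together as a mix, with 2 libraries at 2 h, 1 at 4 h and 2 at 8 h. Each was given alone, and Osm was given with each of the others, for 2 h (n = 2 each), and control mice received PBS (n = 2, with no time stated). In the compartment experiment CD45+, MmSC, CD31+ and MuSC cells of C57BL/6J mice were taken 1 day after cardiotoxin, a snake toxin that destroys myofibres, or from uninjured muscle (n = 3 each). In reporter mice called Il6RD, Thy1.1+ and Thy1.1- MmSCs were sorted 12 h after cardiotoxin (n = 3 each). MmSCs 1 day after cardiotoxin also came from Il1b-KO mice (n = 3) and Il1b-WT littermates (n = 2). DMDmdx mice, which lack dystrophin and have chronic muscle damage, gave 3 MmSC libraries at 2.5 weeks of age, 3 at 7 weeks and 2 at 12.5 weeks, with no group of other mice sorted beside them. Whole tibialis anterior muscle came from C57BL/6J mice 7 days after cardiotoxin that received an antibody to the chemokine Cxcl5 (n = 3) or control IgG (n = 3).

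Library totals ran from 2252373 to 8408842 counts. Levels are CPM, the counts per 1000000 of the scaled library, and since each experiment was scaled separately, levels set side by side across experiments are only approximate. Changes are log2 ratios ± standard error from edgeR's quasi-likelihood test, fitted to all genes of an experiment, and a change was called at an adjusted p under 0.05 after Benjamini-Hochberg adjustment over all genes tested. Marker genes matched the sorted compartments. All 12 stromal markers were called higher in resting MmSCs than in resting CD45+ cells, and all 12 macrophage, 7 neutrophil and 7 lymphocyte markers were called lower. These are bulk libraries, so fewer cells of a type and less RNA per cell cannot be told apart.

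All members lie on the minus strand of the mouse genome (GRCm38). C1qa (chr4:136895917-136898803), C1qc (chr4:136889804-136893065) and C1qb (chr4:136880129-136886187) sit side by side on chromosome 4. C2 (chr17:34862604-34898265), Cfb (chr17:34856374-34862518) and C4b (chr17:34728380-34743882) lie close together on chromosome 17, and C3 (chr17:57203970-57228136) is farther along the same chromosome. C1s1 is at chr6:124530345-124542359 and C7 at chr15:4988762-5063740. A read-through gene model, Gm20547, shares 79.5% of the exon bases of Cfb. In C2, 46.9% are shared with Gm20547 or with Zbtb12 on the other strand. Gm20547 held 2 counts in all libraries together. How reads on shared bases were assigned is not given, so this low count cannot show whether Cfb or C2 lost reads there. The antisense model Gm16567 overlaps 18.4% of the exon bases of C1s1, and strand use in counting is not given in the sources used here.

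RefSeq promoter sequences (GRCm38.p6) matched 5 of the 9 members, and the 250 bases before the start of C3 and C7 are shown because C3 rose at 2 h of the cytokine mix, described further on, where C7 was not called. Both are written 5′ to 3′ on the minus strand, C3 from chr17:57228137-57228386 and C7 from chr15:5063774-5064023. Capitals mark matches, on either strand, to a kB motif (GGG and CC with any 5 bases between them), a GAS motif (TTC and GAA with any 3 bases between them) or an ISRE motif (TTTC, any 2 bases and TTTC again).
C3 promoter: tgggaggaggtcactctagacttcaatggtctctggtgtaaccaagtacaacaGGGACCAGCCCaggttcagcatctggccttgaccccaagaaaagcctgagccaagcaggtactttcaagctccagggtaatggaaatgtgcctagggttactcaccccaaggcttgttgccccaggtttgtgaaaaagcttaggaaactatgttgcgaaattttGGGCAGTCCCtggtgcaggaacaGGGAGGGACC
C7 promoter: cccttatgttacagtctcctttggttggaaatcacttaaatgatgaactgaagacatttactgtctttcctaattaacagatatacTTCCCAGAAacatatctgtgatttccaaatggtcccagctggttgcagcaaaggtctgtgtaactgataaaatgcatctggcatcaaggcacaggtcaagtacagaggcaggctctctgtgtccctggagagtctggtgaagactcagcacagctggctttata
The C3 sequence held 4 kB matches, beginning 197, 196, 33 and 10 bases before the start, of which the first pair overlap. The C7 sequence held no kB match and a GAS match beginning 164 bases before the start. Such matches are common by letters alone: 45.8% of 32851 promoter sequences of this length held a kB match, 7.02% a GAS match and 2.98% an ISRE match, and none of them shows a site in use. Among the other members with a sequence, C1qb and C1qc held 2 overlapping kB matches each. C1s1, which was also called at 2 h of the mix, held none at 1 of its starts and 1 at the other. No sequence was matched for C1qa, C2, C4b or Cfb, so the member with the largest rise after the mix, Cfb, could not be examined.

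In uninjured muscle the C1q chains were counted almost entirely in CD45+ cells, and the remaining members were highest in MmSCs, with C4b present in both. C1qb stood at 3425, 3062 and 1659 CPM in CD45+ libraries, C1qa at 2463, 2299 and 1022 CPM, and C1qc at 3023, 2766 and 1342 CPM. In contrast the highest C1q value in any MmSC library of this experiment was 1.14 CPM, for C1qb, and C1qc had 0 counts in all of them. C1qc was therefore at least 3802-fold lower in resting MmSCs than in resting CD45+ cells (0 against 26564 counts over 3 libraries each, with a floor of 3 counts per library), and C1qb was lower by a log2 difference of -12.85 ± 0.92 (adjusted p = 1.99e-10).

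C1s1, the C1s protease, had 1319, 1230.2 and 899 CPM in resting MmSCs, and 0.241, 0.587 and 0 CPM in resting CD45+ cells. That is 17093 counts against 3, or 4270.0 times as much after scaling (95% interval from counting error 1461 to 20708). C3, the hub of all routes, had 1788, 1623 and 689 CPM in resting MmSCs and 38.8, 22.3 and 55.3 CPM in CD45+ cells, with no overlap (log2 difference 5.14 ± 0.59, adjusted p = 1.1e-07). C2 (3.70 ± 0.65, adjusted p = 6.02e-05) and Cfb (2.81 ± 0.65, adjusted p = 0.000961) were also higher in MmSCs.

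C7 had 239, 253 and 107 CPM in resting MmSCs, against 1 count over all 3 resting CD45+ libraries. No count of C7 was found in resting CD31+ cells or MuSCs, which puts MmSCs at least 249-fold above CD31+ cells and at least 269.5-fold above MuSCs. C4b, the C4 gene counted here, had 293, 327 and 124 CPM in resting MmSCs and 265, 232 and 18.6 CPM in CD45+ cells. The groups overlap, and the log2 difference of 0.53 ± 0.57 (adjusted p = 0.45) was -0.00116 without CD45+ replicate 3, the library with the low value.

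Between resting MmSCs and CD45+ cells, 5 members were called higher and 3 lower, against a background of 28.5% of tested genes called higher and 28.2% lower. The members' median log2 difference was 2.81 and that of all genes -0.03. Against CD31+ cells, where 24% of genes were called higher, C1s1, C2, C3, C4b, Cfb and C7 were all called higher in MmSCs (C3 by 11.27 ± 0.91, C1s1 by 6.2 ± 0.46). Against MuSCs, where 23.4% were called higher, the same 6 members were called higher (C1s1 by 7.68 ± 0.51, C3 by 6.69 ± 0.64, Cfb at least 45.7-fold). CD45+ cells had 6 members called higher and 1 lower than CD31+ cells (25.1% of genes higher, 25.6% lower), and 7 higher and 1 lower than MuSCs (29.1% higher, 27.3% lower), C1s1 being the lower one each time. CD31+ cells had C1s1 and Cfb called higher and C3 lower than MuSCs (26.2% higher, 23.1% lower). Between CD45+ cells and MuSCs C3 was not called without CD45+ replicate 1 (1.53) or 3 (1.22) or MuSC replicate 2 (1.08) or 3 (1.49), nor by DESeq2 (1.66, adjusted p = 0.13). Between CD31+ cells and MuSCs C1s1 was not called without CD31+ replicate 2 (1.11) or MuSC replicate 2 (1.29) or 3 (1.07), nor Cfb without CD31+ replicate 1 (adjusted p = 0.0543). CD31+ cells and MuSCs were low for every member: the highest value at rest was 24.4 CPM, for C3 in MuSC replicate 1.

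**Figure D1:**
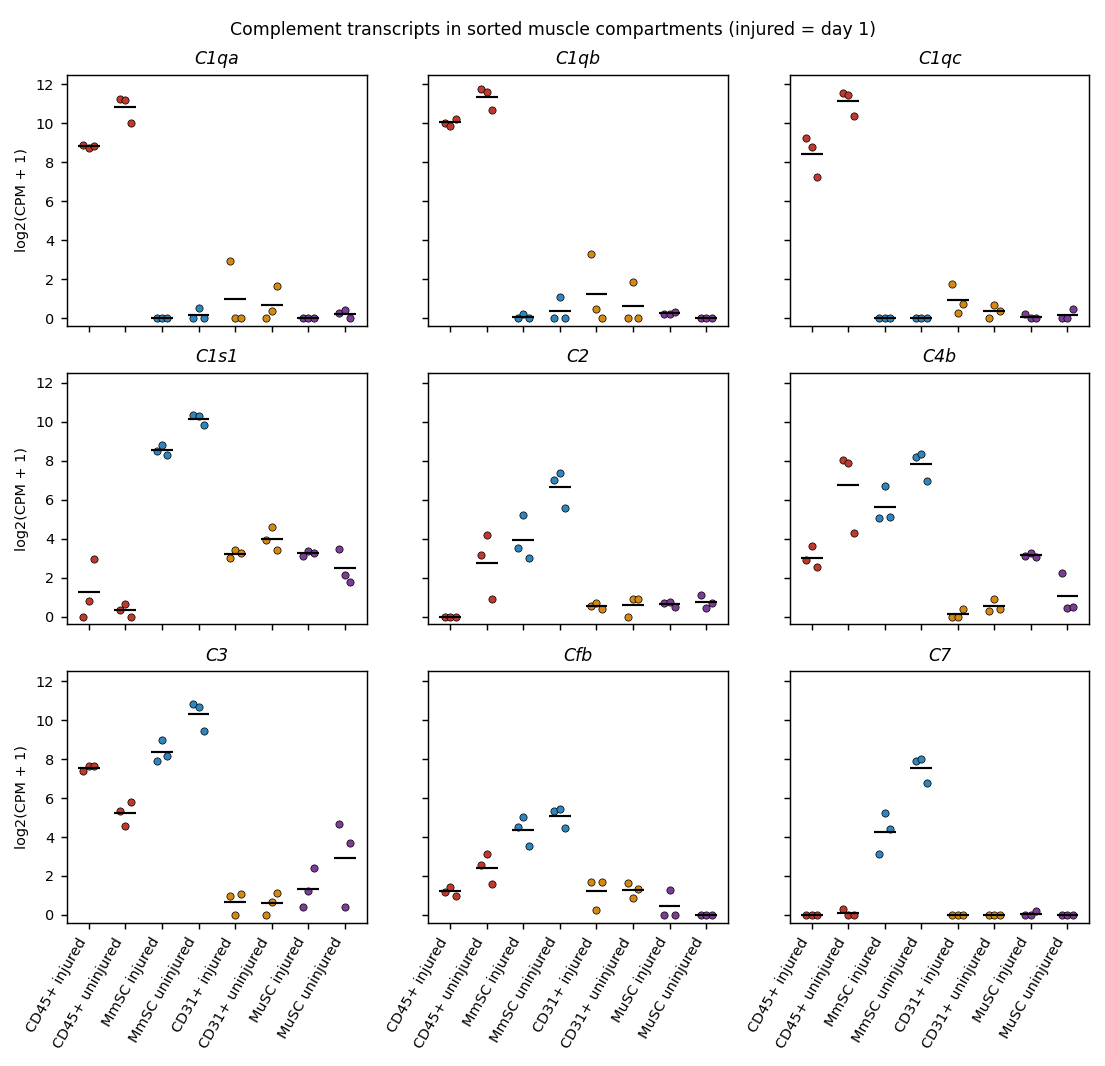
Level of each component, as log2(CPM + 1), in CD45+, MmSC, CD31+ and MuSC libraries, with day 1 after cardiotoxin left of uninjured muscle; points are libraries and bars are means of 3. C1q chains are near 0 outside CD45+ cells, the other components are highest in uninjured MmSCs, and C4b is also high in 2 of the 3 uninjured CD45+ libraries.

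Per kilobase of exon, which allows genes to be ranked within a sample, the resting MmSC levels were 367 ± 70.9 CPM per kb for C1s1, 266 ± 115 for C3, 74.6 ± 30.2 for C7, 43.5 ± 19.1 for C4b, 28.9 ± 15.4 for C2 and 12 ± 4.05 for Cfb (SD, n = 3). Neighbours in this order overlapped, except C3 and C7. The exon lengths of C2 and Cfb include the bases shared with Gm20547. How reads there were assigned is not given, so the places of C2 and Cfb in the order are uncertain. In resting CD45+ cells C1qb had 2496 ± 857 CPM per kb, C1qa 1854 ± 759 and C1qc 1231 ± 469 (SD, n = 3), and these 3 ranges overlapped.

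Of 43 other complement genes, 27 could be tested between these compartments, and 11 were called higher in resting MmSCs and 11 lower. All 9 receptors on the list were lower in MmSCs than in CD45+ cells, among them the anaphylatoxin receptors C3ar1 and C5ar1. The soluble regulators Serping1, the C1 inhibitor, Vtn and Clu and the initiating proteases C1ra and Masp1 were higher in MmSCs.

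One day after cardiotoxin MmSCs had less of 5 of the 6 components they express. C7 had 7.69, 36.6 and 20 CPM in injured MmSCs, against 239, 253 and 107 CPM in uninjured MmSCs, the largest fall of the set (log2 change -3.23 ± 0.46, adjusted p = 5.19e-05). C3 had 239, 500.1 and 286 CPM in injured MmSCs and 1788, 1623 and 689 CPM in uninjured ones (-2.00 ± 0.50, adjusted p = 0.00258). C1s1 had 354, 449 and 309 CPM in injured MmSCs and 1319, 1230.2 and 899 CPM in uninjured ones (-1.63 ± 0.36, adjusted p = 0.000894). For all of these every injured library lay below every uninjured one.

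C2 had 10.4, 36.4 and 7.16 CPM in injured MmSCs and 128, 162 and 46.1 CPM in uninjured MmSCs (log2 change -2.64 ± 0.60, adjusted p = 0.00124). C4b had 31.9, 102 and 34 CPM in injured MmSCs and 293, 327 and 124 CPM in uninjured ones (-2.15 ± 0.59, adjusted p = 0.00555). Both were separated between the groups, although injured replicate 2 stood near the lowest uninjured library. Cfb, with 21.9, 31.8 and 10.7 CPM in injured and 39.1, 41.8 and 20.8 CPM in uninjured MmSCs, overlapped and was not called (adjusted p = 0.382).

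The 5 members called lower, of 9 tested, compare with a background of 23.6% of genes called lower and 18.2% called higher. The median log2 change of all 9 members was -2.15 and that of all genes -0.22. The members' median includes the C1q chains, which rest on few counts in MmSCs. With library size as the only scaling the median of all genes moved to 0.00 and the share of calls that were higher from 43.5% to 59.4%, and all 5 members were still called lower. DESeq2 gave C3 a log2 change of -2.09 that was not called (adjusted p = 0.0613). Of the 27 other complement genes tested, 13 were called lower and 1 higher: the membrane regulators Cd59a (-3.42 ± 0.60) and Cd55 (-2.84 ± 0.39) and the soluble regulators Clu (-2.85 ± 0.43) and Serping1 (-1.91 ± 0.58) fell, as did the protease C1ra (-1.44 ± 0.28). Stromal markers fell as well, 7 of 12, with summed levels of 40697 to 59578 CPM in injured and 162933 to 216345 CPM in uninjured MmSCs, and so did all 7 myofibre markers. Their part in the change of the complement genes was not tested.

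In CD45+ cells the C1q chains were lower 1 day after injury and C3 was higher. C1qc had 596, 445 and 149 CPM in injured CD45+ libraries and 3023, 2766 and 1342 CPM in uninjured ones (log2 change -2.58 ± 0.41, adjusted p = 8.38e-05). C1qa had 465, 420.3 and 458 CPM in injured and 2463, 2299 and 1022 CPM in uninjured CD45+ cells (-2.11 ± 0.49, adjusted p = 0.00245). C1qb had 1049, 936 and 1183 CPM in injured and 3425, 3062 and 1659 CPM in uninjured CD45+ cells, again with no overlap (-1.36 ± 0.49, adjusted p = 0.0356). The calls of C1qa (adjusted p = 0.45) and C1qb (adjusted p = 0.604) were absent with DESeq2. The call of C1qb was also absent without uninjured replicate 1 (-1.10) or 2 (-1.22), or without injured replicate 1 (-1.31), 2 (-1.23) or 3 (-1.40).

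The chains did not keep 1 ratio. The C1qc to C1qb ratio of counts was 0.569, 0.476 and 0.126 in injured CD45+ cells, against 0.883, 0.903 and 0.809 in uninjured cells, and the C1qa to C1qb ratio was 0.443, 0.449 and 0.387 in injured, against 0.719, 0.751 and 0.616 in uninjured cells. Both ratios were lower in every injured library, and replicate 3 of the injured cells had an especially low share of C1qc. Set against the macrophage receptor Csf1r, C1qb stood at 0.786, 0.949 and 1.13 in injured and 1.38, 1.34 and 1.16 in uninjured CD45+ cells.

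C3 had 168, 197 and 199 CPM in injured CD45+ cells and 38.8, 22.3 and 55.3 CPM in uninjured ones, a rise with no overlap (log2 change 2.27 ± 0.53, adjusted p = 0.00201). C4b had 6.46, 11.2 and 4.75 CPM in injured and 265, 232 and 18.6 CPM in uninjured CD45+ cells, a fall of the opposite sign (-4.52 ± 0.72, adjusted p = 4.11e-05). C2 had 0 counts in injured and 94 in uninjured CD45+ cells, which makes it at least 11.6-fold lower (adjusted p = 0.000903). The lowest uninjured value of both C2 and C4b was in replicate 3.

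Altogether 5 members were called lower and 1 higher in CD45+ cells, where 18.7% of genes were called lower and 15.9% higher. The median log2 change of all 9 members, some with few counts in these cells, was -2.11 and that of all genes -0.12. With library size as the only scaling that median was -0.36 and the share of calls that were higher was 28%, against 46.1%. The make-up of the CD45+ sort moved with injury: summed neutrophil markers had 7175 to 10903 CPM in injured and 1150.3 to 3677 CPM in uninjured libraries (5 of 7 called higher), lymphocyte markers 3.49 to 37.3 CPM in injured and 505 to 2153 CPM in uninjured ones (7 of 7 called lower), and macrophage markers 25720.2 to 27789 CPM in injured and 18382 to 26049.8 CPM in uninjured ones. Within the macrophage list Cd68, Fcgr1 and Pf4 were among those called higher, and Cx3cr1 and Folr2 were called lower. The part of these markers in the C1q and C3 values was not tested. Among other complement genes 6 of 27 were called higher and 7 lower. The receptors C5ar1 (2.36 ± 0.36), Cd93 (1.65 ± 0.16) and C3ar1 (1.40 ± 0.29) rose, and the lectin Fcna (-5.04 ± 0.63) and Cd55 (-4.65 ± 0.50) fell.

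The test of the difference between the 2 injury responses, MmSCs minus CD45+ cells, called C3 (-4.27 ± 0.73, adjusted p = 0.000129) and C1s1 (-4.74 ± 1.25, adjusted p = 0.00688), both lower. In this test 11.5% of genes were called lower and 13.6% higher. Without the filter on low counts, with the replicate block or with library size alone, 2 members were also called higher. DESeq2 called 1 higher. The C1s1 difference rested on 31 counts in injured against 3 in uninjured CD45+ cells and was -1.96 without injured CD45+ replicate 3 (adjusted p = 0.503). In CD31+ cells edgeR called none of the 9 members after injury, none had an unadjusted p under 0.05 and DESeq2 called none, against 23.5% of all genes called in either direction. MmSCs minus CD31+ cells likewise gave 0 calls of members by edgeR and DESeq2 and none at an unadjusted p under 0.05, against 12.5% of all genes.

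In MuSCs the levels were low throughout. C3 had 0.304, 1.31 and 4.24 CPM in injured and 24.4, 0.345 and 12 CPM in uninjured MuSCs, and it was the 1 member called, lower (-2.67 ± 0.75, adjusted p = 0.0066), where 17.4% of genes were called lower and 21.4% higher. The groups overlapped, and without uninjured replicate 1 the change was -1.77 (adjusted p = 0.115). C4b had 7.61, 8.51 and 7.42 CPM in injured and 3.74, 0.345 and 0.399 CPM in uninjured MuSCs (2.22 ± 0.98, adjusted p = 0.0805). It was called without uninjured replicate 1 (4.29, adjusted p = 0.039), with DESeq2 (2.25, adjusted p = 0.0383) and when the MuSC libraries were fitted alone (2.27, adjusted p = 0.013). MmSCs minus MuSCs was called lower for C4b (-4.37 ± 1.12, adjusted p = 0.0176) and C1s1 (-2.24 ± 0.62, adjusted p = 0.0277), against 5.62% of genes called lower. The C4b call was absent without uninjured MmSC replicate 2 (-3.82) or uninjured MuSC replicate 3 (-3.84). DESeq2 did not call the C1s1 difference (adjusted p = 0.107), and leaving out single libraries gave C1s1 values of -3.23 to -1.83, with the call absent for 9 of the 12 libraries: any uninjured MmSC library, injured MmSC replicate 1 or 3, uninjured MuSC replicate 2 or 3, and injured MuSC replicate 2 or 3.

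**Figure D2:**
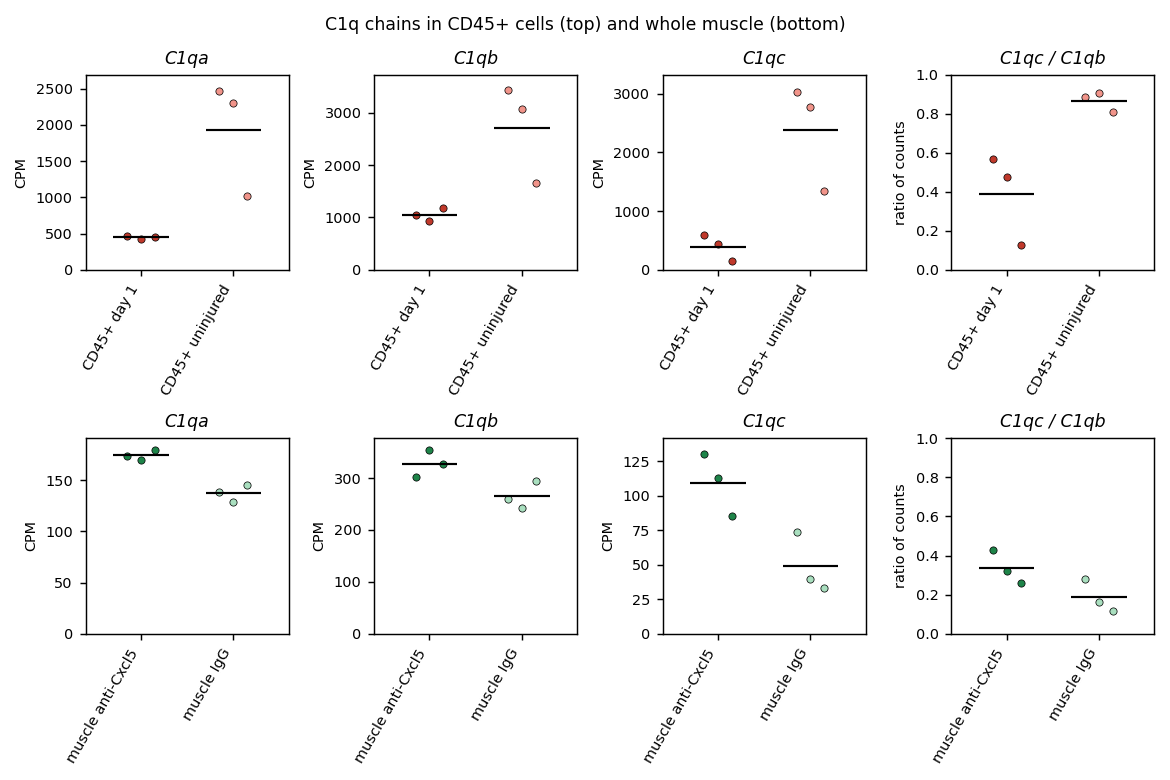
C1qa, C1qb and C1qc in CPM and the C1qc to C1qb ratio of counts, in CD45+ cells at day 1 and uninjured (top) and in whole muscle after anti-Cxcl5 and IgG (bottom); points are libraries and bars are means of 3. The ratio is lower in all injured than in all uninjured CD45+ libraries, and in whole muscle C1qc is 85 to 129.9 CPM after anti-Cxcl5 and 33.4 to 73.3 CPM after IgG.

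The cytokine experiment asked which signals change gene expression in resting MmSCs. Every comparison with PBS used the same pair of PBS libraries. The C1q chains did not pass the filter on low counts and stayed at 0.47 CPM or below, so 6 members were tested. Cfb rose in every setting that included Il-1b, TNFa or Osm, C1s1 and C3 rose in fewer, and C4b and C7 were not called against PBS in the fits used throughout.

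Cfb had 89 and 74.7 CPM at 2 h of the mix, 89.5 CPM at 4 h and 76.9 and 123 CPM at 8 h, against 12.6 and 9.55 CPM after PBS. The log2 changes against PBS were 2.88 ± 0.26 at 2 h (adjusted p = 1.39e-08), 3.01 ± 0.28 at 4 h (adjusted p = 4.62e-08) and 3.17 ± 0.26 at 8 h (adjusted p = 1.14e-08), so that all 3 times stood far above PBS. Il-1b alone gave 112 and 108 CPM (3.31 ± 0.26, adjusted p = 3.65e-09). TNFa gave 39.9 and 23.1 CPM (1.51 ± 0.26, adjusted p = 0.000358), and Osm gave 20 and 20.4 CPM (0.86 ± 0.26, adjusted p = 0.015). Il-17A gave 13.2 and 12.3 CPM, beside the PBS values, and was not called. Osm was lower than Il-1b by a log2 difference of -2.45 ± 0.24 (adjusted p = 3.65e-07), the 1 member called in that comparison, where 5.7% of genes were called lower.

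In pairs, Cfb had 115 and 112 CPM after Osm with Il-1b (3.35 ± 0.26, adjusted p = 1.56e-09), 64.4 and 52.3 CPM after Osm with TNFa (2.40 ± 0.26, adjusted p = 2.59e-07), and 23.8 and 17.7 CPM after Osm with Il-17A (0.90 ± 0.26, adjusted p = 0.0108). By level, Il-1b, alone or with Osm, stood highest and the pair of Osm and TNFa next, with no overlap. TNFa overlapped the pair of Osm and Il-17A, which overlapped Osm alone, and these were not tested against each other. The call for Osm was absent without PBS replicate 2 (0.66) or either Osm library (0.87 and 0.82), and that for Osm with Il-17A without PBS replicate 2 (0.69) or Osm with Il-17A replicate 1 (0.65). With library size as the only scaling neither was called (0.61 and 0.63).

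C3 had 4672 and 4091 CPM at 2 h of the mix, 2282 CPM at 4 h and 2505 and 2380.4 CPM at 8 h, against 1785 and 1526 CPM after PBS. It rose at 2 h (1.40 ± 0.24, adjusted p = 9.56e-05), and the values at 4 h (adjusted p = 0.224) and 8 h (adjusted p = 0.088) were above both PBS libraries but not called. The 8 h libraries were lower than the 2 h libraries (-0.84 ± 0.24, adjusted p = 0.00934). This call was absent without 2 h replicate 1 (-0.74) or 8 h replicate 2 (-0.79), and with library size as the only scaling (-0.38). Among single cytokines C3 was called for Il-1b, with 2944 and 2471 CPM (0.71 ± 0.24, adjusted p = 0.0273). That call was absent without PBS replicate 1 (0.79) or 2 (0.56), without Il-1b replicate 1 (0.58), with DESeq2 (0.67) and with library size as the only scaling (0.40). TNFa gave 2946 and 2159.7 CPM and was not called (adjusted p = 0.0898), and Il-17A gave 953 and 983 CPM, below both PBS libraries and not called (adjusted p = 0.0674). C3 was also not called after Osm alone, Osm with Il-1b, Osm with TNFa or Osm with Il-17A.

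C1s1 had 1067 and 1118 CPM at 2 h of the mix, 791 CPM at 4 h and 827 and 851 CPM at 8 h, against 713 and 703 CPM after PBS. Its replicates lay close together, and the change at 2 h was 0.63 ± 0.11 (adjusted p = 0.000102). It rose by 0.52 ± 0.11 after Il-1b (998 and 1027 CPM, adjusted p = 0.000918), 0.41 ± 0.11 after TNFa (1007 and 871 CPM, adjusted p = 0.0141), 0.73 ± 0.11 after Osm with Il-1b (1160.0 and 1195 CPM, adjusted p = 1.52e-05), 0.55 ± 0.11 after Osm with TNFa (1019 and 1055 CPM, adjusted p = 0.000436) and 0.43 ± 0.11 after Osm with Il-17A (942 and 968 CPM, adjusted p = 0.00378). Osm alone, with 834 and 886 CPM, missed the threshold (adjusted p = 0.0518).

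These small rises of C1s1 depend on the scaling. With library size alone the 2 h mix gave 0.11, Il-1b 0.20, TNFa 0.26, Osm with TNFa 0.21 and the pair of Osm and Il-17A 0.16, none called, and Osm with Il-1b gave 0.29 (adjusted p = 0.0299). C1s1 was lower at 8 h than at 2 h of the mix (-0.38 ± 0.11, adjusted p = 0.00938), which turned to 0.086, not called, with library size alone. The call was also absent without 2 h replicate 2 (-0.35), 8 h replicate 1 (-0.35) or 8 h replicate 2 (-0.38). The TNFa call was absent without PBS replicate 1 (0.40) or 2 (0.38) or TNFa replicate 1 (0.27). That scaling moved the median of all genes at 2 h of the mix to -0.58 from -0.06, and the share of calls that were higher to 25.3% from 53.3%. With it C3 (0.89, adjusted p = 0.0056) was still called at 2 h.

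C2 had 24.7 and 27.9 CPM at 2 h of the mix and 14.1 and 19.8 CPM after PBS, not called (adjusted p = 0.416). It was called once in the experiment, after Osm with Il-1b, with 33 and 71.4 CPM (1.63 ± 0.57, adjusted p = 0.0267). That call was absent without PBS replicate 1 (1.39) or 2 (1.87), without Osm with Il-1b replicate 2 (0.96), with DESeq2 (1.62) and with library size alone (1.18). Without the filter on low counts edgeR also called C2 higher after Il-1b alone (0.97, adjusted p = 0.000629). C4b ranged from 37 CPM, in TNFa replicate 2, to 282 CPM, in Osm with Il-1b replicate 2, against 70.9 and 89.7 CPM after PBS, and its replicates often lay far apart. After Il-1b, for example, C4b had 192 and 37.3 CPM.

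C7 ran from 127 CPM, after Il-1b, to 509 CPM, after Osm with Il-1b, and had 314 and 230.3 CPM after PBS. In the test of whether Osm changes the effect of Il-1b, C7 was the 1 member called (interaction 1.53 ± 0.49, adjusted p = 0.0376), where 5.1% of genes were called higher. Il-1b alone gave 170.4 and 127 CPM, below both PBS libraries though not called, and Osm alone gave 268 and 181 CPM. After Osm with Il-1b replicate 2 had 509 CPM, and replicate 1 lay between the 2 libraries of Osm alone. The interaction rested on the library with 509 CPM: without it the value was 0.71 (adjusted p = 0.355). It was also not called without PBS replicate 1 (1.33), Il-1b replicate 2 (1.34) or Osm replicate 2 (1.32), with DESeq2 (1.62) or when only the groups compared were fitted (1.58). The Osm by TNFa test called 0 members with edgeR and DESeq2 and had none at an unadjusted p under 0.05 (5.91% of all genes called). The Osm by Il-17A test also called 0 with both tools, with 1 member, C7, at an unadjusted p under 0.05 (2.56% of all genes called).

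**Figure D3:**
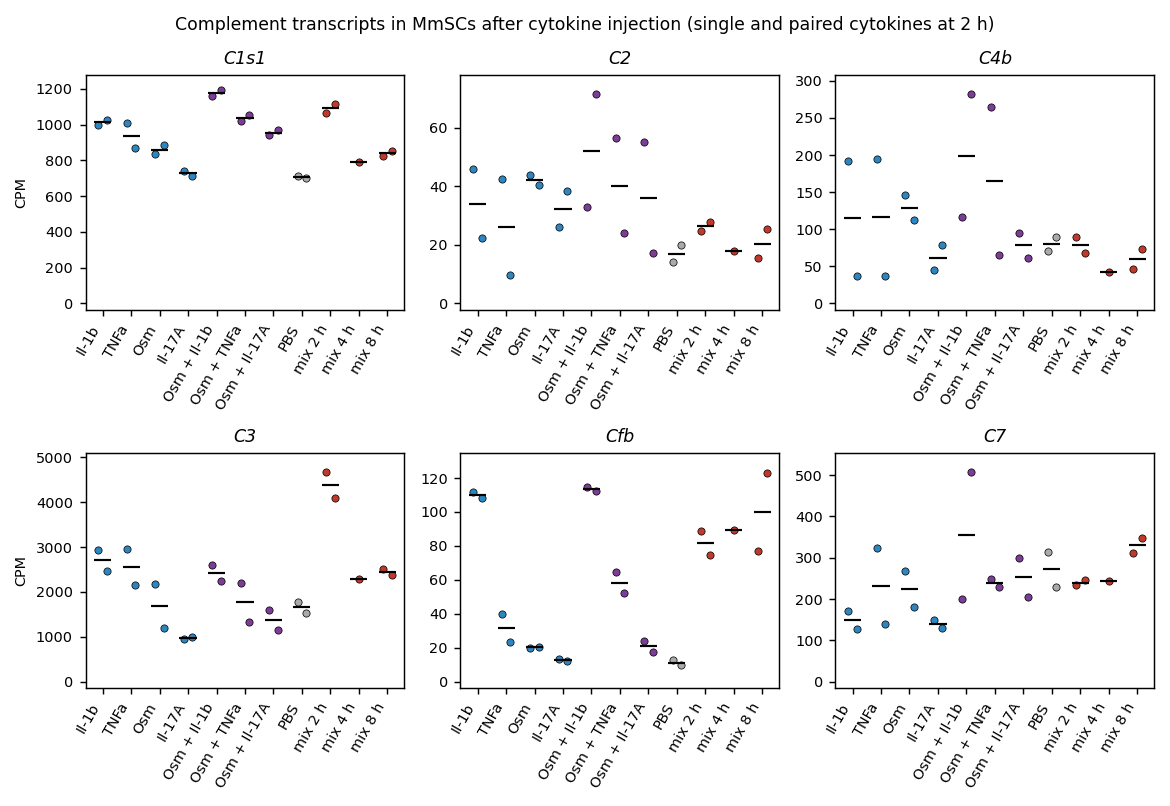
CPM of C1s1, C2, C4b, C3, Cfb and C7 in MmSCs after single cytokines, Osm pairs, PBS and the mix at 2, 4 and 8 h; points are libraries and bars are means of 2, with 1 library at 4 h. Cfb is above both PBS libraries in every setting with Il-1b, TNFa or Osm, and C3 is highest at 2 h of the mix.

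Counted over the 6 members tested, 3 were called higher at 2 h of the mix (20.5% of all genes), 1 at 4 h (19.6%), 1 at 8 h (15.6%), 3 after Il-1b (19.5%), 2 after TNFa (10.2%), 1 after Osm (18.9%), 3 after Osm with Il-1b (21.7%), 2 after Osm with TNFa (20.5%) and 2 after Osm with Il-17A (19.4%). None was called lower against PBS in these fits. The share of genes called lower was 18% at 2 h, 16.8% at 4 h and 12.9% at 8 h of the mix. It was 13.7% after Il-1b, 4.62% after TNFa, 15.5% after Osm, and 20.2%, 16.6% and 16.2% after Osm with Il-1b, TNFa and Il-17A. With other processing some members were called lower. After Il-1b 1 was, with size-factor scaling, library size alone, no filter or only the groups compared. Of the 6 members tested, only C7 had both Il-1b libraries below both PBS libraries. At 4 h of the mix 1 member was called lower, without the filter or with only the groups compared. After Il-17A 2 were in those settings, and 1 with the replicate block. C1s1 and C3 were the 2 called lower at 8 h against 2 h, where 18.7% of genes were. C7 had 312 and 348 CPM at 8 h and 233 and 245 CPM at 2 h, with no overlap and no call (0.46 ± 0.34, adjusted p = 0.322). It was called higher without the filter on low counts (0.50, adjusted p = 0.0137), when only those groups were fitted (0.47, adjusted p = 0.00943) and with library size alone (0.93, adjusted p = 0.0329). With library size alone neither C1s1 nor C3 was called, C7 and Cfb were called higher and none lower, and the share of all calls that were higher was 74.7%, against 47%. The median log2 change of the members was 0.63 at 2 h of the mix (all genes -0.06), 0.61 after Il-1b (all genes -0.01) and 1.02 after Osm with Il-1b (all genes -0.08). Il-17A gave 0 calls by edgeR, 2 members (C3 and C7) at an unadjusted p under 0.05 and 0 by DESeq2, where 4.95% of all genes were called. The members' median there was -0.17.

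Of the other complement genes, 20 were tested, and at 2 h of the mix 5 were higher and none lower. C1ra, the protease that activates C1s, rose by 0.93 ± 0.11, and the regulators Vtn (0.84 ± 0.24), Serping1 (0.49 ± 0.10) and Clu (0.49 ± 0.17) rose. With library size as the only scaling 1 of the 20 was called higher and 3 lower at 2 h: C1ra was called at 0.42 (adjusted p = 0.0061), while Vtn (0.33), Serping1 (-0.03) and Clu (-0.03) were not called. At 8 h 4 were higher and 4 lower under either scaling, with Cd55 at -2.22 ± 0.29. Summed macrophage markers stayed at 26.6 to 77.9 CPM in all libraries of the experiment. Summed stromal markers had 188148 to 198796 CPM at 2 h of the mix and 152235 to 153562 CPM after PBS, and their part in these values was not tested.

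Thy1.1+ and Thy1.1- MmSCs of the reporter mice were compared within the same injury. Il6 itself had 75.3, 52.7 and 289.9 CPM in Thy1.1+ and 43.9, 22 and 67.2 CPM in Thy1.1- cells, higher in each Thy1.1+ library than in the Thy1.1- library of the same number. By edgeR no member was called, nor any of the 11975 genes tested (0% called), although 3 members had an unadjusted p under 0.05, and DESeq2 called 2, Cfb (adjusted p = 0.0176) and C7 (adjusted p = 0.0418). Samples with the same replicate number deviated together, and with the replicate number as a block Cfb, C3 and C7 were called, where 4.93% of genes were called higher and 5.81% lower.

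Cfb had 36.6, 42.5 and 35.4 CPM in Thy1.1+ cells and 22.6, 22.3 and 17.7 CPM in Thy1.1- cells, with no overlap (log2 difference 0.87 ± 0.20, adjusted p = 0.276; with the block 0.87 ± 0.18, adjusted p = 0.00714). C7 went the other way, with 37, 29.1 and 39.4 CPM in Thy1.1+ and 59.1, 58.1 and 91.2 CPM in Thy1.1- cells (-0.98 ± 0.24, adjusted p = 0.276; with the block -0.96 ± 0.16, adjusted p = 0.00151). C3 had 794, 270.1 and 332 CPM in Thy1.1+ and 1145, 870.4 and 841 CPM in Thy1.1- cells (-1.03 ± 0.39, adjusted p = 0.427; with the block -1.18 ± 0.16, adjusted p = 0.000456). C3 and C7 were thus lower and Cfb higher in Thy1.1+ cells in all 3 pairs. C1s1, C2 and C4b overlapped between the groups, and C1s1 had 498, 513 and 789 CPM in Thy1.1+ and 490.0, 593 and 832 CPM in Thy1.1- cells. Summed macrophage markers had 22.6 to 35 CPM in Thy1.1+ and 31.5 to 51.7 CPM in Thy1.1- cells, and none of 15 other complement genes tested was called by edgeR, with 2 at an unadjusted p under 0.05.

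The deleted gene itself gave little check of the labels, since MmSCs hardly express it: Il1b had 0, 0 and 1 counts in Il1b-KO and 2 and 5 counts in Il1b-WT libraries. Loss of Il1b gave 0 calls of the 6 members by edgeR in MmSCs 1 day after injury, with 1 at an unadjusted p under 0.05 and 0 by DESeq2, where 1.21% of all genes were called. Cfb, the member that Il-1b raised most, had 25.4, 24.6 and 30.4 CPM in Il1b-KO and 30.5 and 46.6 CPM in Il1b-WT cells, the highest Il1b-KO value lying just below the lowest Il1b-WT one (log2 change -0.53 ± 0.19, adjusted p = 0.281). The result turns on which Il1b-WT library is used: without Il1b-WT replicate 1 Cfb was called (-0.80, adjusted p = 0.00936) and so was C2 (-0.89, adjusted p = 0.0166), and without replicate 2 Cfb was -0.19 and C2 0.14. C3 had 2195, 1838 and 2022 CPM in Il1b-KO and 1686 and 2482 CPM in Il1b-WT cells, and C7 had 78.5, 77.4 and 90.4 CPM in Il1b-KO and 77.7 and 105 CPM in Il1b-WT cells. Both overlapped.

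In DMDmdx mice all 6 stromal members were higher at later ages. C4b had 103, 122 and 160.2 CPM at 2.5 weeks, 512, 835 and 795 CPM at 7 weeks and 1978 and 1720.1 CPM at 12.5 weeks. It rose by 2.47 ± 0.19 at 7 weeks against 2.5 weeks (adjusted p = 2.8e-07) and by a further 1.37 ± 0.20 at 12.5 weeks against 7 weeks (adjusted p = 0.00174), with no overlap between ages.

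C3 had 272, 735 and 1063 CPM at 2.5 weeks, 2709, 3600.4 and 3584 CPM at 7 weeks and 6166 and 5506 CPM at 12.5 weeks. Its change was 2.26 ± 0.33 at 7 against 2.5 weeks (adjusted p = 8.3e-05) and 3.08 ± 0.36 at 12.5 against 2.5 weeks (adjusted p = 2.24e-05), and the step between 7 and 12.5 weeks, though without overlap, was not called (adjusted p = 0.182). C1s1 had 259.6, 278 and 362 CPM at 2.5 weeks, 554, 639 and 624 CPM at 7 weeks and 804 and 752 CPM at 12.5 weeks. It rose by 1.01 ± 0.13 at 7 weeks (adjusted p = 3.35e-05) and 1.38 ± 0.15 at 12.5 weeks (adjusted p = 1.01e-05), each against 2.5 weeks. C2 had 31.8, 41.3 and 41.2 CPM at 2.5 weeks, 86.3, 102 and 115 CPM at 7 weeks and 157 and 129 CPM at 12.5 weeks, with rises of 1.41 ± 0.16 (adjusted p = 6.95e-06) and 1.91 ± 0.17 (adjusted p = 1.86e-06) against 2.5 weeks.

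Cfb and C7 followed different courses. Cfb had 4.12, 11.2 and 11.3 CPM at 2.5 weeks, 77.2, 103 and 92.9 CPM at 7 weeks and 67.7 and 63.5 CPM at 12.5 weeks. It rose at 7 weeks (3.36 ± 0.25, adjusted p = 1.78e-07), and its lower values at 12.5 than at 7 weeks were not called (adjusted p = 0.274). C7 had 7.66, 6.85 and 13.5 CPM at 2.5 weeks, 11.4, 39.8 and 23.7 CPM at 7 weeks and 307 and 191 CPM at 12.5 weeks. Its main rise was between 7 and 12.5 weeks (3.33 ± 0.35, adjusted p = 0.000287), and leaving out single libraries kept that value between 2.91 and 3.86. At 7 against 2.5 weeks C7 overlapped and changed by 1.42 ± 0.38 (adjusted p = 0.00817), which was 0.88 without 7-week replicate 2 (adjusted p = 0.0701).

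**Figure D4:**
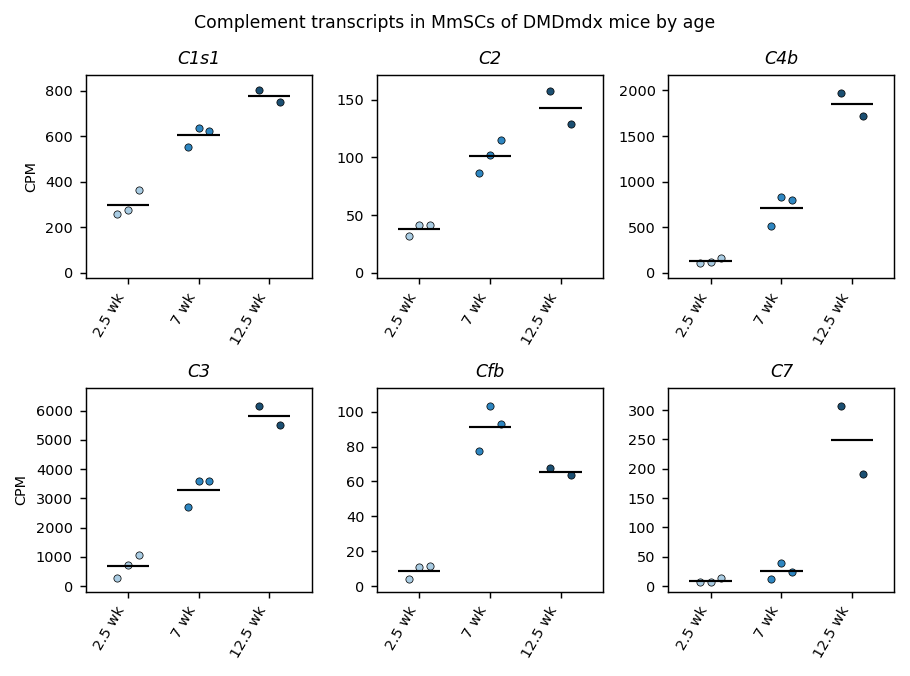
CPM of C1s1, C2, C4b, C3, Cfb and C7 in DMDmdx MmSCs at 2.5, 7 and 12.5 weeks; points are libraries and bars are means of 3, 3 and 2. C1s1, C2, C3 and C4b are higher at each later age, Cfb is highest at 7 weeks, and C7 reaches 191 to 307 CPM at 12.5 weeks.

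At 7 against 2.5 weeks 6 of 6 members were called higher, against 21.9% of all genes, with a median log2 change of 1.84 (all genes -0.02). At 12.5 against 2.5 weeks 6 of 6 were called higher, against 13.9% of genes, with a median of 2.99 (all genes -0.01), and at 12.5 against 7 weeks 2 of 6, C4b and C7, against 3.52%, with a median of 0.66 (all genes 0.01). When only those 2 ages were fitted, 5 members were called higher and 1, Cfb, lower. With library size as the only scaling the share of calls that were higher was 39.3% at 12.5 against 7 weeks, compared with 59.6%, and 35.8% at 12.5 against 2.5 weeks, compared with 52.9%.

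Of 19 other complement genes tested, 12 were called higher and 3 lower at 7 against 2.5 weeks. Of all genes 21.9% were called higher there, and 49.2% of all calls were higher. Masp1, a protease of the lectin route, rose by 2.35 ± 0.22, C4a by 2.05 ± 0.23 and C1s2 by 1.11 ± 0.14, and the membrane regulators Cd55 (-0.82 ± 0.14) and Cr1l (-0.41 ± 0.13) fell. At 12.5 against 7 weeks Csmd1 (1.59 ± 0.35), C4a (1.42 ± 0.21) and Masp1 (0.99 ± 0.21) rose further. C4a is a near copy of C4b and C1s2 of C1s1, so the split of reads within each pair is uncertain. Summed stromal markers had 129045 to 156378 CPM at 2.5 weeks, 138444 to 158004 CPM at 7 weeks and 145193 to 172018 CPM at 12.5 weeks, and summed macrophage markers 50.1 to 70.7, 42.3 to 48.9 and 41.7 to 51.5 CPM at the same ages. Summed endothelial markers were 377 to 412 CPM at 2.5 weeks, 47 to 57.9 CPM at 7 weeks and 75.8 to 101 CPM at 12.5 weeks, most of it Tek, and their part was not tested.

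In whole muscle 7 days after cardiotoxin C1qb and C1qa had the highest levels per kilobase of the members in both groups. After anti-Cxcl5, C1qb had 301 ± 23.6 CPM per kb, C1qa 168 ± 4.7, C1qc 56.6 ± 11.7, C1s1 32.8 ± 1.95 and C3 21.2 ± 5.39 (SD, n = 3), in that order with no overlap between neighbours. After IgG, C1qb had 243.9 ± 24 CPM per kb, C1qa 132 ± 7.95, C1s1 35.7 ± 3.65, C1qc 25.2 ± 11.1 and C3 21.6 ± 5.24 (SD, n = 3), and there the range of C1qc overlapped those of C1s1 and C3. C7 was at or below 3.19 CPM in every whole-muscle library.

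C1qc had 129.9, 113 and 85 CPM after anti-Cxcl5 and 73.3, 39.5 and 33.4 CPM after IgG. C1qa had 174, 169.8 and 179 CPM after anti-Cxcl5 and 139, 129 and 145 CPM after IgG, and C1qb had 302, 353 and 327 CPM after anti-Cxcl5 and 260.5, 242 and 294 CPM after IgG. All 3 chains were separated between the groups in every library. The share of all genes separated in this way is not given here, and the 3 chains follow each other closely across groups. None was called by edgeR: C1qc differed by 1.15 ± 0.27 (adjusted p = 0.793), C1qa by 0.34 ± 0.12 (adjusted p = 0.832) and C1qb by 0.30 ± 0.13 (adjusted p = 0.844), where 0.03% of all genes were called. These 3 were the members with an unadjusted p under 0.05, and DESeq2 called C1qc alone (1.16, adjusted p = 0.0272). The C1qc to C1qb ratio of counts was 0.430, 0.319 and 0.260 after anti-Cxcl5 and 0.281, 0.163 and 0.114 after IgG, which overlapped.

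Macrophage markers summed to 1781 to 2652 CPM after anti-Cxcl5 and 1325 to 1750.2 CPM after IgG, with 11 of 12 pointing higher and none called, and neutrophil markers to 16.1 to 116 CPM after anti-Cxcl5 and 10.3 to 18.6 CPM after IgG. Most of the neutrophil sum was Mmp9 (7.36 to 100 CPM after anti-Cxcl5, 3.67 to 11.8 CPM after IgG) and Csf3r. Csf3r had 8.41 to 14.4 CPM after anti-Cxcl5 and 5.57 to 7.66 CPM after IgG. The remaining neutrophil markers, S100a8 among them, were at or below 1.24 CPM in every library. Relative to Csf1r, C1qb stood at 1.52, 1.19 and 1.45 after anti-Cxcl5 and 1.44, 1.5 and 1.26 after IgG, with overlap. Whether the markers account for the C1q values was not tested. The other members overlapped between the groups, for example C3 with 98.5, 87.6 and 140.2 CPM after anti-Cxcl5 and 83.5, 137 and 112 CPM after IgG.

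**Figure D5:**
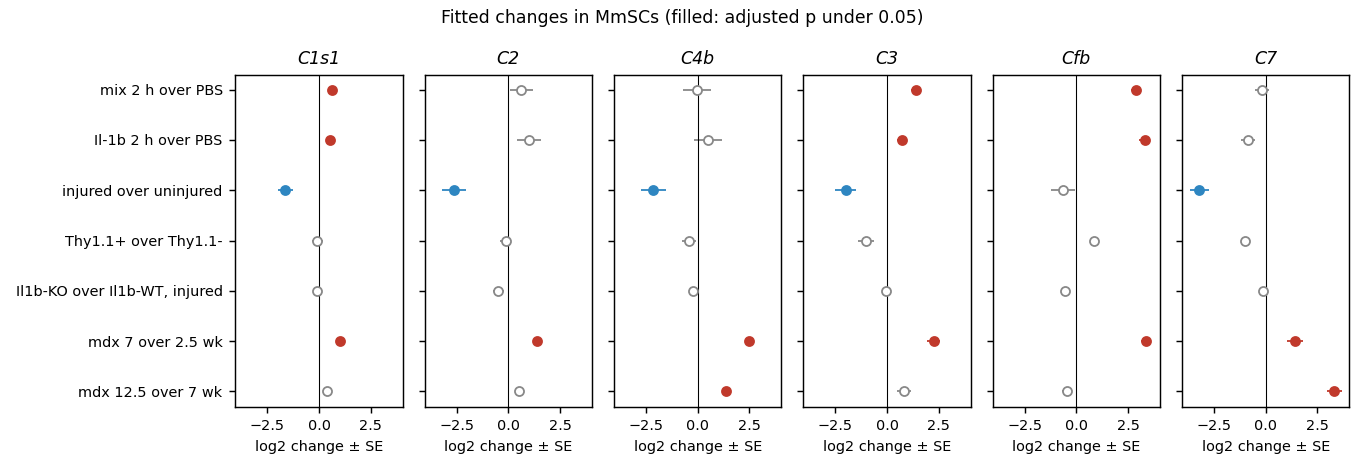
Log2 change ± standard error of C1s1, C2, C4b, C3, Cfb and C7 in 7 comparisons; filled symbols have an adjusted p under 0.05 in edgeR (red higher, blue lower) and open symbols were not called. In the compartment experiment 5 members are called lower in injured than in uninjured MmSCs. All 6 are higher in DMDmdx MmSCs at 7 than at 2.5 weeks, and Cfb has the largest change after the mix and Il-1b.

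Over all 20 MmSC groups the levels spanned wide ranges. Mean C3 ran from 342 CPM in day 1 MmSCs of the compartment experiment to 5836 CPM in 12.5-week DMDmdx MmSCs, with the 2 h mix next at 4382 CPM. Mean C4b ran from 42.5 CPM, in the single library at 4 h of the mix, to 1849 CPM, and mean C2 from 16.9 CPM after PBS to 143 CPM, both highest in 12.5-week DMDmdx MmSCs. Cfb was lowest in 2.5-week DMDmdx MmSCs (8.85 CPM) and highest after Osm with Il-1b (114 CPM). C1s1 had the same extremes, 299.9 and 1178 CPM. C7 was lowest in 2.5-week DMDmdx MmSCs (9.34 CPM). Its highest mean, 354 CPM after Osm with Il-1b, rests on the library of 509 CPM, and the other library there lies below both PBS values, so the next highest mean was 330.0 CPM, at 8 h of the mix. Uninjured MmSCs of the compartment experiment and PBS MmSCs of the cytokine experiment, both from uninjured C57BL/6J mice, had 112 and 16.9 CPM of C2, 248 and 80.3 CPM of C4b, and 33.9 and 11.1 CPM of Cfb, on separate scalings.

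Day 1 after cardiotoxin was sampled in 2 experiments. MmSCs had 239 to 500.1 CPM of C3 and 7.69 to 36.6 CPM of C7 in the compartment experiment, and 1686 to 2482 CPM of C3 and 77.7 to 105 CPM of C7 in Il1b-WT mice. C1s1, with 309 to 449 and 346 to 409 CPM, overlapped between these experiments. Because scaling and mice differ, no test was made.

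Across the means of all 28 groups, which share the experiments' scaling, the C1q chains followed each other with correlations of 0.990 to 0.998, as a description. The genes most like them were Adgre1 and Cybb for C1qb (0.996 each), Il10ra for C1qa (0.995) and Fcrls and Fgd2 for C1qc (0.996 each), of 12228 genes compared. The C1q chains were high only in CD45+ cells and whole muscle, so these correlations rest on those groups. For the stromal members the closest were Serpine2 for C1s1 (0.980), Adamtsl2 for C7 (0.963), Sfrp1 for C2 (0.960) and C4b (0.897), Steap3 for C3 (0.955) and Steap4 for Cfb (0.922). Within the members C1s1 and C7 (0.919), C2 and C4b (0.918) and C3 and C7 (0.884) were closest.

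The spread between replicates depended on the group. Over 19 MmSC groups with 2 or 3 libraries, the member with the largest ratio of highest to lowest library was C2 in 7, C4b in 5, C3 and C7 in 3 each and C1s1 in 1. Between the 2 libraries of a cytokine group, over 10 groups, the higher value divided by the lower had a median of 1.67 and a maximum of 5.28 for C4b, a median of 1.85 and a maximum of 4.40 for C2, and a median of 1.03 and a maximum of 1.16 for C1s1. In 11 of the 12 groups with 2 libraries the library with more C4b also had more C2, but in the 7 groups with 3 libraries both were highest in the same library in 3.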

How the data were processed

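The deposited file holds whole-number counts per gene symbol, made by the authors with STAR 2.7.3a and featureCounts on mm10/GRCm38, per the submitters' processing notes; the annotation version, strand and multi-mapping settings were not given in the sources used here. All its columns map to samples. Members and gene lists were chosen with earlier results of these data known. Each experiment was fitted alone with edgeR 4.0.16 (limma 3.58.1, R 4.3.3): genes kept by filterByExpr at a minimum count of 10, TMM scaling, quasi-likelihood test, Benjamini-Hochberg adjustment over all tested genes, calls at 0.05. This left 15965, 16374, 11975, 13346, 13160 and 12102 genes in the cytokine, compartment, reporter, whole-muscle, DMDmdx and Il1b experiments. Totals per library were 4774571 to 8408842, 2252373 to 7519352, 4924282 to 7107525, 3176462 to 7178453, 3507546 to 5960363 and 4802278 to 6812089 counts in the same order. Standard errors are |log2 change| over sqrt(F). Bounds use 3 counts per library, and 95% intervals are exact; both cover counting error only. Replicates differed beyond counting noise, and as the labels do not tie them to animals, p-values measure the spread between samples. Same-numbered reporter samples had correlated deviations (0.345 to 0.601 over 3 pairs), taken as pairing; the numbers paired no other experiment. Named genes were all members, up to 4 called other complement genes per comparison with the smallest adjusted p, set ones (among them C3ar1, C5ar1, Serping1, Cd55, Cr1l, C1ra, Cfd), and from the 3 genes most like each member over the group means of log2(CPM + 1). DESeq2 1.42.0, size-factor and library-size scaling, no filter, fits of only the groups compared, the replicate block and leaving out each library were the alternatives. The self-test ran on simulated counts. The 12.5-week age is given as 12wk in the sample titles. Some results are not reported here.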

Additional observations from a re-analysis of the deposited data

Results flagged for a closer look

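Results that differed between groups by a test of the difference itself are listed as values. The effect of Il-1b on C7 differed with Osm (1.53 ± 0.49 on the log2 scale, adjusted p = 0.0376 by edgeR), and without the Osm with Il-1b library of 509 CPM it was 0.71. The injury response of MmSCs minus that of CD45+ cells was -4.27 for C3, which fell in MmSCs and rose in CD45+ cells, and -4.74 for C1s1, where the CD45+ side rests on 31 counts after injury and 3 before. The injury response of MmSCs minus that of MuSCs was -4.37 for C4b and -2.24 for C1s1. The cause of these differences was not tested.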

How the results depend on the processing

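Of 90 calls of a member in a comparison, 81 stayed called in the same direction with DESeq2 and 9 were not called, 90 stayed with size-factor scaling, and over all single libraries left out 464 fits kept the call and 50 did not. With library size as the only scaling, chosen after seeing the data, 76 stayed, 13 were not called and 1 reversed: C1s1 at 8 h against 2 h of the mix, 0.086. C4b between resting MmSCs and CD45+ cells was -0.00116 to 0.81 when single libraries were left out, lowest without CD45+ replicate 3, and C2 in Il1b-KO against Il1b-WT was -0.89 to 0.14, highest without Il1b-WT replicate 2; neither was called with all libraries.

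Counts of members called moved by over 1.5 times as follows, and the cause was not tested. Without the filter on low counts they were 3 (mix 4 h), 2 (mix 8 h), 6 (Il-1b), 3 (Osm), 3 (Il-17A), 5 (Osm with Il-1b), 4 (Osm with TNFa), 3 (Osm against Il-1b), 1 (Osm by TNFa), 2 (Osm by Il-17A), 4 (CD31+ injury), 4 (MuSC injury), 4 (MmSC minus CD45+), 2 (MmSC minus CD31+), 5 (CD31+ against MuSC), 2 (Thy1.1+) and 1 (anti-Cxcl5). With the replicate block they were 2 (mix 4 h), 2 (mix 8 h), 1 (Il-17A), 2 (Osm against Il-1b), 2 (MuSC injury), 4 (MmSC minus CD45+) and 3 (Thy1.1+), and only in the Thy1.1 experiment do the numbers pair samples. With only the groups compared they were 3 (mix 4 h), 2 (mix 8 h), 3 (Osm), 3 (Il-17A), 5 (Osm with Il-1b), 0 (Osm by Il-1b), 1 (Osm by Il-17A), 2 (MuSC injury), 5 (CD45+ against MuSC), 1 (CD31+ against MuSC) and 6 (12.5 against 7 weeks). DESeq2 gave 2 (Osm), 0 (Osm by Il-1b), 2 (MuSC injury), 1 (MmSC minus MuSC), 2 (Thy1.1+) and 1 (anti-Cxcl5). Library size alone gave 1 (TNFa), 0 (Osm), 1 (Osm with TNFa), 0 (Osm with Il-17A), 4 (MmSC minus CD45+) and 1 (MmSC minus MuSC). Leaving out single libraries gave 1 to 2 (TNFa), 0 to 1 (Osm), 1 to 3 (Osm with Il-17A), 0 to 1 (mix 8 h against 2 h), 1 to 2 (Osm against Il-1b), 0 to 1 (Osm by Il-1b), 1 to 4 (MmSC minus CD45+), 0 to 2 (MmSC minus MuSC) and 0 to 2 (Il1b-KO).

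Groups of 2 or 3 libraries and 1 library at 4 h limit every test. C1q chains at under 2 CPM in stromal cells, and C2, C3, C4b, Cfb and C7 in CD31+ cells and MuSCs, rest on few counts.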

Other observations

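C1s2, a near copy of C1s1, was counted mainly in 2 experiments. Mean C1s2 was 31.2, 67.5 and 84.9 CPM in DMDmdx MmSCs at 2.5, 7 and 12.5 weeks, 33 CPM in Il1b-KO and 35.8 CPM in Il1b-WT MmSCs, and at most 0.965 CPM in every other group. C4a, a near copy of C4b, was highest in DMDmdx MmSCs at the later ages. Its means in the other groups of those 2 experiments were also above those of all remaining groups. Mean C4a was 7.17, 29.9 and 79.5 CPM in DMDmdx MmSCs at the same ages, 5.45 CPM in Il1b-KO and 6.8 CPM in Il1b-WT MmSCs, and elsewhere it reached 4.3 CPM, at 2 h of the mix. The labels name C57BL/6J for most of the remaining groups.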
